A study of Homo sapiens with 12 samples.

Results

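Chromosomes 16, 17, 20 and 22 are small human chromosomes that textbooks describe as rich in genes, early in replication and high in GC content. All regions of 6 deposited lists with a midpoint on these 4 chromosomes were taken (hg19), leaving out the first 5 Mb of chromosomes 16, 17 and 20, the last 5 Mb of all 4, and chromosome 17 from 10.7 to 22.2 Mb. The rule gave 16066 regions of 169273 in all, or 9.49%. They lay in 5 intervals: chr16:5000001-85354753, chr17:5000001-10700000, chr17:22200001-76195210, chr20:5000001-58025520 and chr22:1-46304566. No regions were chosen or left out by a measured value. The gene content of the chromosomes was taken as background and was not measured here.

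Cells copy their DNA from many start points, and sequence that is rich in genes and in open chromatin tends to be copied early in S phase. The thymidine analogue bromodeoxyuridine (BrdU) is built into newly made DNA, so that an antibody to BrdU pulls down sequence copied during the labelling. H3K18ac is histone H3 acetylated on lysine 18 of its tail. It is laid down by the acetyltransferases p300 and CBP, encoded by EP300 and CREBBP, and marks active promoters and enhancers.

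The study related DNA replication to chromatin marks in 3 established human cell lines. The H1 knockdown BrdU library came from H1 embryonic stem cells given siRNAs against EP300 and CREBBP, and the H1 control BrdU library from H1 cells given a non-targeting siRNA. Both cultures had 10 µM HA 1077 in the medium and were collected 72 h later. The IMR90 BrdU library came from primary lung fibroblasts and the Saos-2 BrdU library from osteosarcoma cells, both without siRNA and with no HA 1077 given in the labels. H3K18ac was mapped in H1 and IMR90 cells without siRNA, from 5000000 cells per immunoprecipitation. For BrdU sequencing, 4 µg of labelled DNA was heated in alkali to take off RNA primers, fragmented and pulled down. H1 BrdU lists therefore differ from the other lists in treatment as well as in cell line. The 6 input libraries are not analysed here, and the level of EP300 and CREBBP after the siRNA treatment is not shown by these files.

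Each group had 1 library, so no difference below can be set against a spread between replicates and no p-value is given. All intervals are 95% intervals and cover counting error only, and neighbouring regions are not independent of each other. Densities are regions per open Mb, where a 500 kb bin is open if any list holds a region in it. The 4 chromosomes had 202.9 open Mb, 8.34% of the open autosomal sequence within the same limits, and the other autosomes had 2229 open Mb. The depth of the libraries is unknown. At the 9 boundaries of the intervals, the first Mb inside and the first Mb outside held 6 and 4 H1 knockdown BrdU regions, 37 and 40 H1 control BrdU regions, 49 and 79 IMR90 BrdU regions, and 53 and 64 Saos-2 BrdU regions. The corresponding counts were 412 inside and 624 outside for H1 H3K18ac, and 393 inside and 403 outside for IMR90 H3K18ac. These counts are not per open Mb, and single boundaries differed. For H1 H3K18ac, chr17:22200001 had 0 regions inside and 31 outside, while chr20:58025521 had 37 inside and 9 outside.

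BrdU regions were denser on chromosomes 16, 17, 20 and 22 than on the other autosomes in the H1 control, IMR90 and Saos-2 lists, while the H1 knockdown list gave a ratio closer to 1 that depended on which chromosomes were taken. The H1 control list held 512 regions there, or 2.52 per Mb (2.31 to 2.75), against 1.496 per Mb on the other autosomes, a density ratio of 1.69 (1.53 to 1.85). IMR90 BrdU had 636 regions or 3.135 per Mb, against 1.52 per Mb, a ratio of 2.07 (1.895 to 2.25). Saos-2 BrdU had 667 regions or 3.29 per Mb, against 1.53 per Mb, a ratio of 2.15 (1.98 to 2.34). The 3 lists had almost equal densities on the other autosomes and differed more on these chromosomes. Relative to the H1 control list, the number of regions on chromosomes 16, 17, 20 and 22 was 1.27 times (1.13 to 1.44) as high in Saos-2 as the ratio on the other autosomes would give, and 1.225 times (1.08 to 1.39) as high in IMR90.

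The H1 knockdown list held 138 regions on the 4 chromosomes, or 0.680 per Mb, against 0.589 per Mb on the other autosomes. The ratio of 1.155 had an interval of 0.962 to 1.38 that included 1. Among the upper 50% of the list by score the ratio was 1.64 (1.31 to 2.04). It was 1.35 (1.10 to 1.65) without chromosome 16 and 1.25 (1.02 to 1.51) without chromosome 20, both intervals above 1. It was 1.08 (0.868 to 1.34) without chromosome 17 and 0.978 (0.790 to 1.20) without chromosome 22.

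The 2 H3K18ac lists differed in how they were spread over the genome. H1 H3K18ac had 7363 regions on the 4 chromosomes, or 36.3 per Mb, against 19.95 per Mb on the other autosomes, a ratio of 1.82 (1.775 to 1.865). IMR90 H3K18ac had 6750 regions or 33.3 per Mb, against 31.5 per Mb, a ratio of only 1.06 (1.03 to 1.08). This small IMR90 excess was lost in 2 alternatives. The ratio was 0.979 (0.954 to 1.003) with the full sequence length as denominator and 0.971 (0.942 to 1.001) without chromosome 17, both intervals including 1. The number of H1 regions over the number of IMR90 regions was 1.09 on chromosomes 16, 17, 20 and 22, against 0.6335 on the other autosomes, so that these chromosomes stood 1.72 times (1.66 to 1.78) higher. By region length, single windows of 100 bp had a density ratio of 1.76 in H1 and 1.05 in IMR90, and regions of 200 to 500 bp had 1.915 in H1 and 1.05 in IMR90. Regions of 600 to 1900 bp had 1.805 in H1 and 1.06 in IMR90. Those of 2000 bp and over had 1.97 (1.03 to 3.51) in H1, from 14 regions on the 4 chromosomes, and 1.16 (0.990 to 1.35) in IMR90, from 182.

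**Figure D1:**
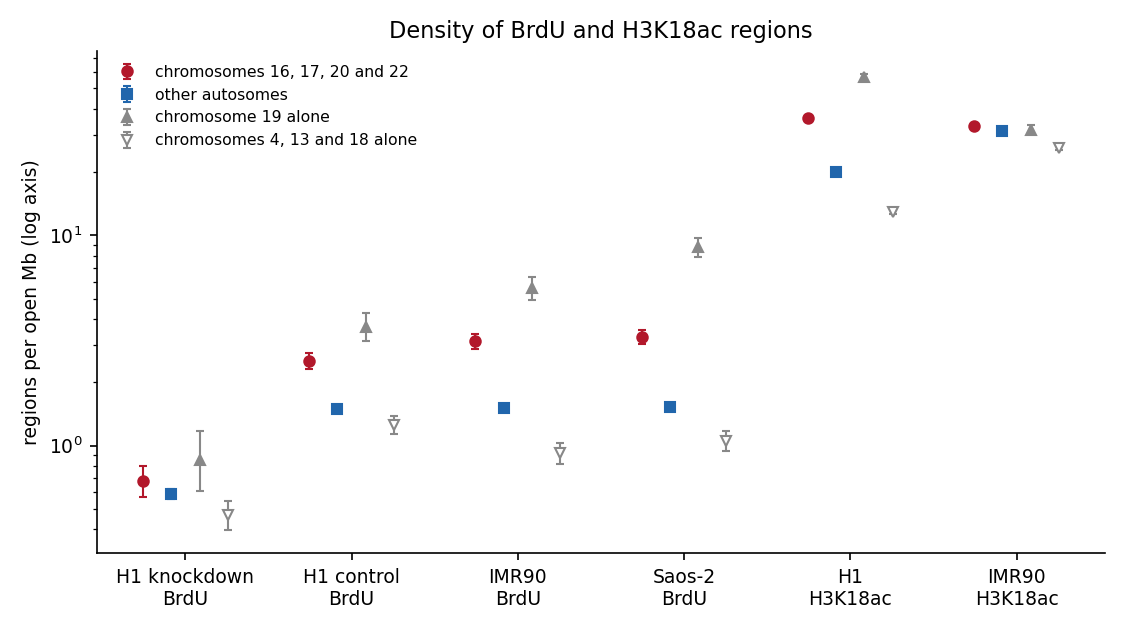
Regions per open Mb (log axis) in each of the 6 lists, for chromosomes 16, 17, 20 and 22 together, the other autosomes, and for orientation chromosome 19 and chromosomes 4, 13 and 18 alone. Bars are exact Poisson 95% intervals of 1 library each. Chromosomes 16, 17, 20 and 22 lie above the other autosomes in the H1 control, IMR90 and Saos-2 BrdU lists and in H1 H3K18ac, and the IMR90 H3K18ac values of 33.3 and 31.5 per Mb lie close together.

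Chromosome 19, textbook gene-rich, and chromosomes 4, 13 and 18, textbook gene-poor, gave a scale for these values. The density on chromosomes 16, 17, 20 and 22 was below that on chromosome 19 in the H1 control, IMR90 and Saos-2 BrdU lists, with ratios of 0.685 (0.575 to 0.821), 0.561 (0.484 to 0.651) and 0.375 (0.331 to 0.426). The H1 knockdown ratio of 0.796 had an interval that included 1 (0.554 to 1.17). For H1 H3K18ac the ratio was 0.642, and for IMR90 H3K18ac it was 1.045 (0.987 to 1.11). Against chromosomes 4, 13 and 18 all 6 ratios were above 1. They were 1.46 for H1 knockdown BrdU, 2.00 for H1 control BrdU, 3.41 for IMR90 BrdU, 3.12 for Saos-2 BrdU, 2.80 for H1 H3K18ac and 1.28 for IMR90 H3K18ac.

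Chromosome 22 was the densest of the 4 in every list. It carried 1.30 H1 knockdown, 3.99 H1 control, 5.80 IMR90 and 5.39 Saos-2 BrdU regions per Mb, and 71.8 H1 and 40.6 IMR90 H3K18ac regions per Mb. Its ratios to the other autosomes were 2.20 (1.55 to 3.04) in the H1 knockdown list, 2.67 in the H1 control list, 3.82 in IMR90 BrdU, 3.53 in Saos-2 BrdU and 3.60 in H1 H3K18ac. For IMR90 H3K18ac its ratio was 1.29 (1.22 to 1.365), close to the 1.28 (1.22 to 1.33) of chromosome 17. Without chromosome 22 the ratio of the remaining 3 chromosomes was 1.52 for H1 control BrdU, 1.77 for IMR90 BrdU, 1.92 for Saos-2 BrdU and 1.52 for H1 H3K18ac, all still above 1. The IMR90 H3K18ac ratio was then 1.02 (0.990 to 1.05).

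The other 3 chromosomes were not alike. Chromosome 16 had more H1 control BrdU (ratio 1.49), IMR90 BrdU (1.64), Saos-2 BrdU (1.90) and H1 H3K18ac (1.425) than the other autosomes, but fewer IMR90 H3K18ac regions, with a ratio of 0.835 (0.796 to 0.875). Chromosome 17 was above the other autosomes in 5 lists, with ratios of 1.28 for IMR90 H3K18ac, 1.64 for H1 control BrdU, 1.70 for Saos-2 BrdU, 1.84 for H1 H3K18ac and 1.98 for IMR90 BrdU. Its H1 knockdown ratio of 1.335 had an interval of 0.969 to 1.80. Chromosome 20 split by arm. On 20q the ratio was 1.875 for H1 control BrdU, 2.33 for IMR90 BrdU, 2.61 for Saos-2 BrdU and 1.71 for H1 H3K18ac. On 20p only Saos-2 BrdU lay above the other autosomes, at 1.595 (1.18 to 2.11), while H1 knockdown BrdU was at 0.745 (0.340 to 1.42), H1 control BrdU was at 0.815 (0.527 to 1.21), IMR90 BrdU at 0.804 (0.519 to 1.19), H1 H3K18ac at 0.680 (0.602 to 0.765) and IMR90 H3K18ac at 0.747 (0.681 to 0.817). On 20p Saos-2 had 50 BrdU regions, against 25 in the H1 control.

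**Figure D2:**
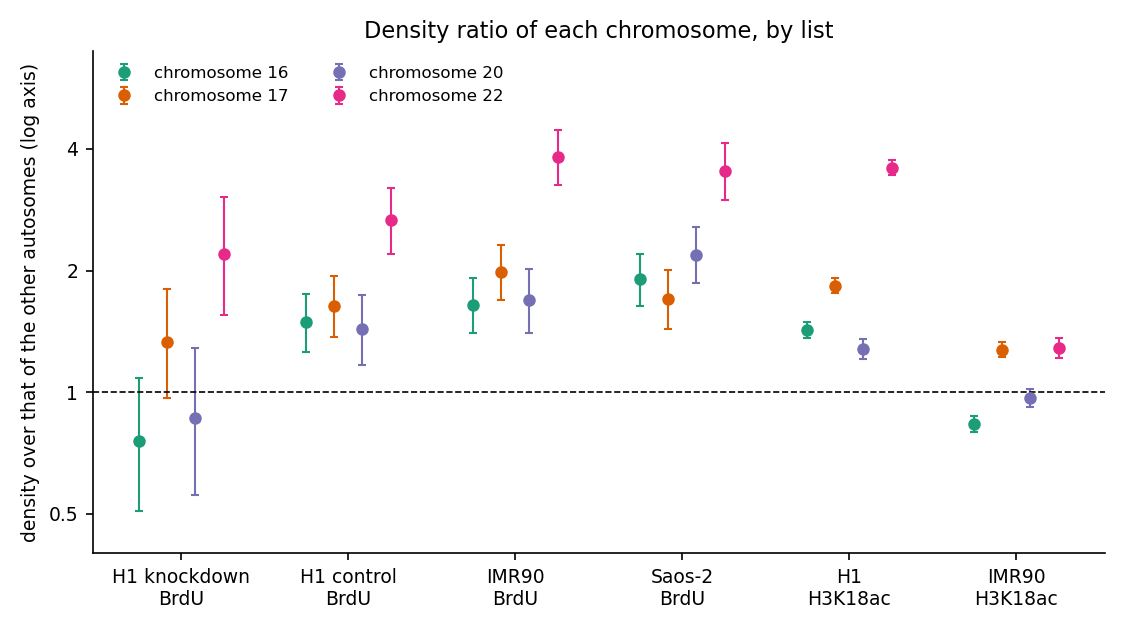
Density of regions on each of chromosomes 16, 17, 20 and 22 divided by the density on the other autosomes (log axis), in each list, with 95% intervals of counting error; the dashed line marks 1. Chromosome 22 has the highest point in every list, and chromosome 16 lies below 1 in IMR90 H3K18ac, at 0.835.

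After knockdown of EP300 and CREBBP, the number of BrdU regions fell further below the control number on chromosomes 16, 17, 20 and 22 than on the other autosomes. The knockdown list had 138 regions there against 512 in the control list, a ratio of 0.2695 (0.222 to 0.326). On the other autosomes it had 1313 against 3334, a ratio of 0.394 (0.369 to 0.420). The ratio on the 4 chromosomes was 0.684 times (0.561 to 0.835) that of the other autosomes. Chromosome 16, with 30 knockdown and 150 control regions, and chromosome 20, with 25 and 105, had number ratios of 0.2 and 0.238. Chromosome 17, with 45 knockdown and 140 control regions, and chromosome 22, with 38 and 117, had ratios of 0.321 and 0.325, and their intervals of 0.224 to 0.453 and 0.219 to 0.472 included the value of the other autosomes. Chromosome 19 had 39 knockdown and 168 control regions (0.232), and chromosomes 4, 13 and 18 had 152 and 410 (0.371). With both lists limited to their upper 50% by score, the ratio was 0.722 times (0.562 to 0.927) that of the other autosomes. With the control list limited to as many top-scoring regions as the knockdown list holds, it was 0.514 times (0.407 to 0.649). Only the control list was cut by score there, and low-scoring control regions were a larger share on the other autosomes, as given below. Like was therefore not compared with like in that setting. The 2 lists come from 1 culture each, and a difference in depth between them cannot be told apart from the knockdown.

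Few control regions had a knockdown region at the same place. Of the 512 control regions on the 4 chromosomes, 20 overlapped a knockdown region by at least 1 bp, or 3.91% (2.40 to 5.97), beside 3.07% over the whole list and 2.79% on the other autosomes. In the other direction, 20 of 138 knockdown regions overlapped a control region, or 14.5% (9.08 to 21.5), beside 9.06% over the whole list and 7.16% on the other autosomes, a share ratio of 2.02 (1.29 to 3.17). Among the upper 50% of both lists by score this ratio was 1.28 (0.798 to 2.05). The 20 overlapping control regions had a median length of 400 bp, and the other 492 had 100 bp. Their median score rank was 751.5, against 2316 for the other 492. Of the 20, 12 overlapped an IMR90 BrdU region (60%) and 14 a Saos-2 region (70%), against 112 (22.8%) and 164 (33.3%) of the other 492. Over the whole control list these shares were 20.5% and 34%. Sharing rose with the score, as given below, and the part of the score in this difference was not tested. H3K18ac was found at 2 of the 20 and at 48 of the 492. Of the 118 knockdown regions without a control region, 5 overlapped IMR90 BrdU and 6 overlapped Saos-2 BrdU. For the 20 knockdown regions with a control region these counts were 9 and 12. Over the whole knockdown list, 4.73% of regions overlapped IMR90 BrdU and 13% overlapped Saos-2 BrdU.

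The top-scoring knockdown region with a control overlap was chr17:7078801-7079100, 300 bp long, which ranked 15 in its list by the authors' score. It lay in the control region chr17:7077901-7079400, rank 28 in the control list, and overlapped IMR90 and Saos-2 BrdU regions but no H3K18ac region. The next 2 were chr16:23327501-23327700 and chr22:39959701-39959900, each 200 bp long, and both had the same pattern. The top-scoring control region without a knockdown region was chr17:75480301-75481600, rank 48 in the control list and rank 33 in IMR90 BrdU, which Saos-2 also shared. The top-scoring knockdown region without a control overlap was chr17:70185501-70185700, and it overlapped regions in IMR90 and Saos-2 BrdU. No annotation of hg19 was used, so no region is given a gene.

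With regions of all scores counted, H1 control BrdU regions on the 4 chromosomes were shared with the other cell lines more often than those on the other autosomes. For Saos-2 the share was close to that of the whole H1 control list. Once the score was taken into account, the IMR90 excess was smaller and the Saos-2 ratio fell below 1, as given below. In IMR90 BrdU, 124 of 512 had an overlap, or 24.2% (20.6 to 28.2), beside 20.5% over the whole list and 16.1% on the other autosomes, a share ratio of 1.504 (1.27 to 1.785). In Saos-2 BrdU, 178 had an overlap, or 34.8% (30.6 to 39.1), beside 34% over the whole list and 27.8% on the other autosomes, a ratio of 1.25 (1.10 to 1.43). In IMR90 BrdU, 45 of 150 H1 control regions on chromosome 16 had an overlap (share ratio 1.86, 1.44 to 2.41) and 35 of 117 on chromosome 22 (1.86, 1.39 to 2.48). On chromosome 17 there were 25 of 140 (1.11, 0.771 to 1.595) and on chromosome 20 there were 19 of 105 (1.12, 0.742 to 1.70), both with intervals that included 1. In Saos-2 BrdU the ratios were 1.27 (1.02 to 1.59) on chromosome 16, 1.16 (0.904 to 1.48) on chromosome 17, 1.13 (0.849 to 1.51) on chromosome 20 and 1.45 (1.15 to 1.82) on chromosome 22.

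For the regions of IMR90 and Saos-2 the intervals of the share ratios included 1 as counted here, and lay above 1 in some alternatives. Of 636 IMR90 BrdU regions, 120 overlapped H1 control BrdU (18.9%, beside 18.1% over the whole list and 16.1% on the other autosomes), a ratio of 1.17 (0.981 to 1.40). Of the same regions 162 overlapped Saos-2 BrdU (25.5%, beside 26.8% over the whole list and 22.3% on the other autosomes), a ratio of 1.14 (0.9875 to 1.325). Of 667 Saos-2 regions, 173 overlapped H1 control BrdU (25.9%, beside 26% over the whole list and 25.8% on the other autosomes), a ratio of 1.01 (0.875 to 1.16). IMR90 BrdU overlapped 160 of them (24.0%, beside 23.5% over the whole list and 21.04% on the other autosomes), a ratio of 1.14 (0.981 to 1.325). Without chromosome 17 the ratio was 1.27 (1.05 to 1.55) for IMR90 in H1 control BrdU and 1.23 (1.05 to 1.44) for IMR90 in Saos-2 BrdU. Without chromosome 20 the ratios were 1.23 (1.02 to 1.49) and 1.19 (1.015 to 1.39), and that for Saos-2 in IMR90 BrdU was 1.26 (1.07 to 1.47).

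**Figure D3:**
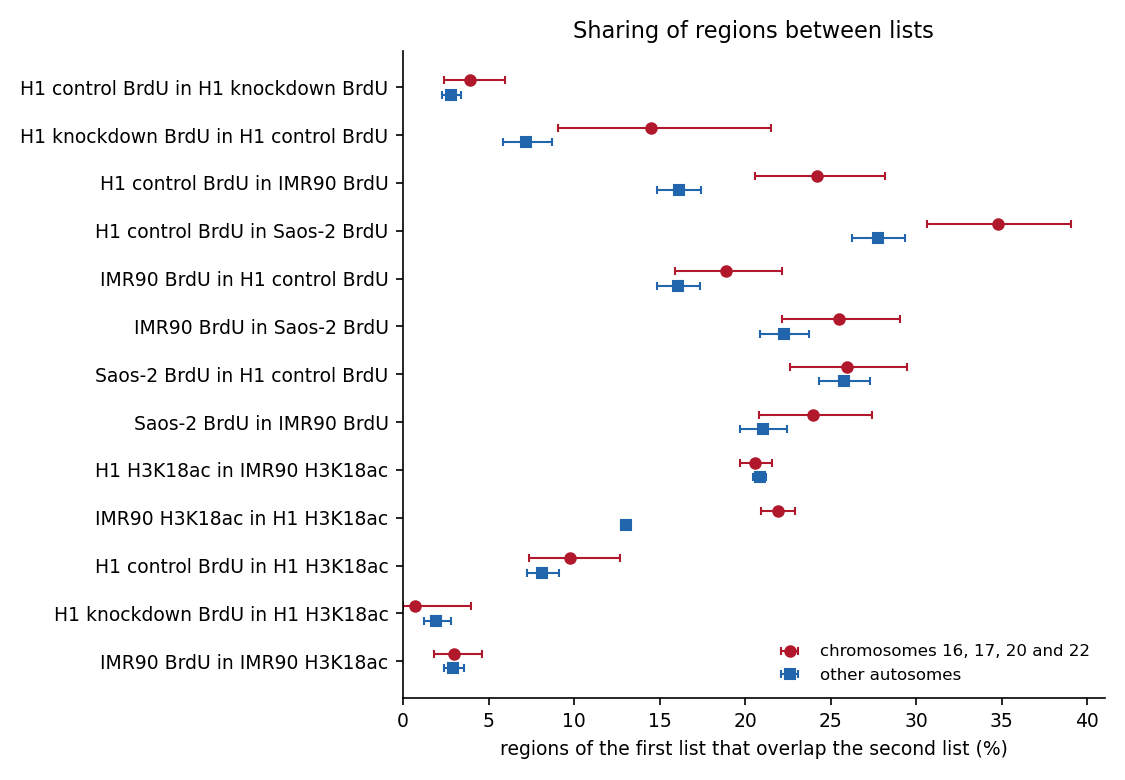
Percentage of regions of the first-named list that overlap a region of the second by at least 1 bp, on chromosomes 16, 17, 20 and 22 and on the other autosomes, for 13 pairs of lists, with exact 95% binomial intervals. The widest gap is in IMR90 H3K18ac regions found in H1 H3K18ac, at 21.9% and 13.01%.

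Sharing moved with the score of a region, and the score make-up of the lists differed between the chromosomes. The authors' score grows with region length, and its meaning is not stated, so it was used only to divide each list into 5 equal score groups, numbered from 1 (lowest) to 5 (highest). Of the 512 H1 control regions on the 4 chromosomes, 28 or 5.47% were in score group 1, against 24.2% on the other autosomes. For IMR90 BrdU these shares were 11.5% and 26.4%, for H1 knockdown BrdU 3.62% and 18.7%, and for Saos-2 BrdU 19.2% and 23.2%. In the H3K18ac lists they were within 1 percentage point of each other, at 18.6% and 18.8% in H1 and 19.6% and 20.0% in IMR90.

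Within score groups, the differences between H1 control regions on the 4 chromosomes and those elsewhere were mixed. In group 5, 106 of 114 overlapped Saos-2 BrdU, or 93.0% (86.6 to 96.9), against 96.8% on the other autosomes. In group 4 the Saos-2 shares were 53.6% and 57.6%. In group 1, 0 of 28 had a Saos-2 overlap, with an interval of 0 to 12.3%. For IMR90 BrdU the shares in group 5 were 64.9% and 61.8%. In group 3 they were further apart, at 14 of 135 or 10.4% (5.79 to 16.8) and 31 of 653 or 4.75% (3.25 to 6.67). With the other autosomes weighted to the score groups of these chromosomes, the H1 control share ratio was 1.13 for IMR90 BrdU and 0.9385 for Saos-2 BrdU. Among the upper 50% of both lists it was 1.08 (0.922 to 1.26) and 0.894 (0.793 to 1.01). The higher sharing with Saos-2 was not seen there, and both intervals included 1. This alternative also took the ratios of IMR90 regions below 1, to 0.910 in H1 control BrdU and 0.876 in Saos-2 BrdU.

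**Figure D4:**
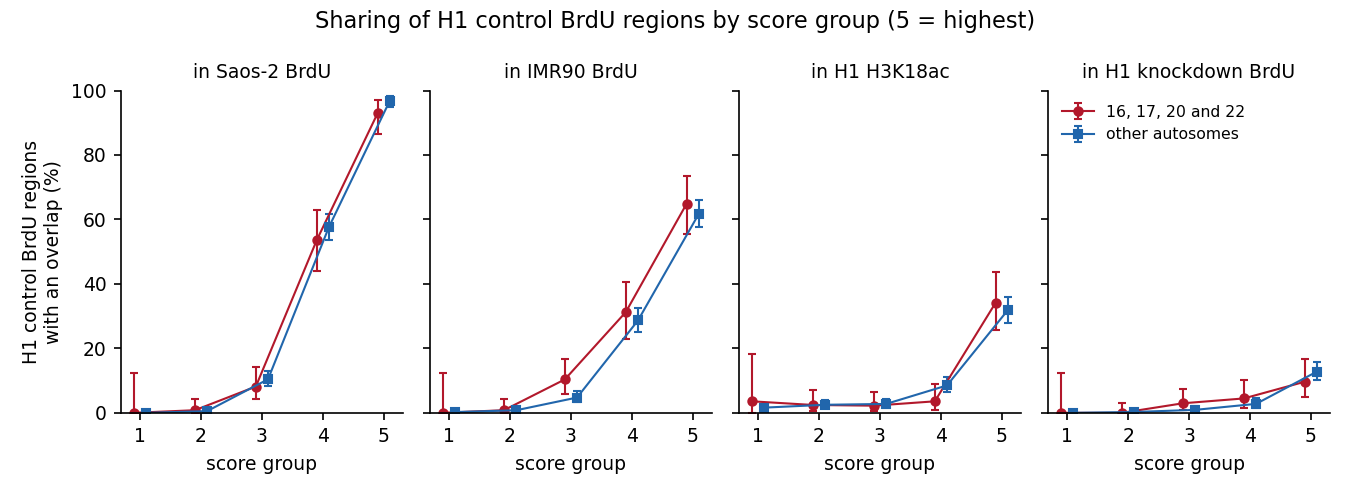
Percentage of H1 control BrdU regions with an overlap in each of 4 other lists, by score group (5 is the highest), on chromosomes 16, 17, 20 and 22 and on the other autosomes, with exact 95% binomial intervals. Both curves are highest in group 5 in each panel: 93.0% and 96.8% of group 5 overlap Saos-2 BrdU. For H1 H3K18ac the curve of the 4 chromosomes stays at or below 3.57% before it reaches 34.2% in group 5. That of the other autosomes is at 8.51% in group 4 and 31.9% in group 5.

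Merging overlapping regions of the H1 control, IMR90 and Saos-2 BrdU lists gave 1436 loci on the 4 chromosomes. Of these, 103 were found in all 3 cell lines, or 7.17% (5.89 to 8.63), beside 6.83% of all loci and 5.82% on the other autosomes. The density of such loci was 2.34 times (1.87 to 2.90) that of the other autosomes, and their share of the loci 1.23 times (1.003 to 1.51). When each list was limited to its upper 50% by score, the share ratio was 0.916 (0.742 to 1.13). Its interval also included 1 with merging within 10 kb (1.19), with whole autosomes (1.09) and without chromosome 16 (1.15), chromosome 17 (1.25) or chromosome 22 (1.19). A further 149 loci were found in 2 cell lines and 1184 in 1. Loci found in H1 alone made up 21.03% (18.95 to 23.2) on these chromosomes, beside 23.3% of all loci and 27.8% on the other autosomes. The share ratio to the other autosomes was 0.756 (0.680 to 0.841), and the part of the score in it was not tested. Loci of IMR90 alone made up 31.3%, beside 29.7% of all loci and 30.6% on the other autosomes. Loci of Saos-2 alone made up 30.1%, beside 29.9% of all loci and 27.4% on the other autosomes. By chromosome, loci in all 3 lines numbered 33 of 393 on chromosome 16, 26 of 377 on chromosome 17, 17 of 330 on chromosome 20 and 27 of 336 on chromosome 22. On 20p they were 2 of 90, and 42 of those 90 loci were in Saos-2 alone.

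The locus with the highest mean score rank over the 3 cell lines was chr17:60869801-60871700, 1900 bp long. It ranked 18 in the H1 control list and 13 in IMR90 BrdU, was also in the H1 knockdown list, and overlapped H3K18ac in IMR90 but not in H1. The next was chr22:35738701-35740100, 1400 bp long, whose H1 control region ranked 20. The third was chr17:7077901-7079600. Both were in the knockdown list and at neither H3K18ac list. The top Saos-2 region on the 4 chromosomes was chr16:48964501-48966700, 2200 bp long and rank 8 in its list, found in all 3 cell lines and at H1 H3K18ac. A contrasting case was chr16:47888001-47888900, rank 61 in H1 control BrdU, which Saos-2 shared and which H1 H3K18ac overlapped, with no IMR90 BrdU region. The top H1 control region without a Saos-2 region, chr22:20151501-20152000, ranked only 424. The top Saos-2 region without an H1 control region, chr17:62792201-62793000, ranked 156 and was in no other list.

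H3K18ac in H1 was found at 50 of the 512 H1 control BrdU regions on the 4 chromosomes, or 9.77% (7.335 to 12.7), beside 8.75% over the whole list and 8.13% on the other autosomes, a share ratio of 1.20 (0.902 to 1.60). Those 50 were mostly top-scoring: 39 of the 114 regions in score group 5 had H3K18ac, or 34.2% (25.6 to 43.7), and in each of the other groups the share was at most 3.57%. The other autosomes were alike in group 5, with 172 of 539 or 31.9%. In group 4 they had 8.51%, against 3.57% (0.982 to 8.89) on the 4 chromosomes. The 50 regions were also mostly shared between cell lines. H3K18ac was at 28 of 92 regions found in both other lines (30.4%, 21.3 to 40.9), at 15 of 118 found in 1 other line (12.7%) and at 7 of 302 found in H1 alone (2.32%). On the other autosomes these shares were 25.85%, 15.8% and 2.81%. The median length was 400 bp for regions found in both other lines and 100 bp for those in H1 alone, and the part of length in this order was not tested.

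The H1 mark was also found at BrdU regions of the other cell lines. It was at 28 of 96 IMR90 BrdU regions found in both other lines (29.2%) and at 29 of 450 found in IMR90 alone (6.44%). On the other autosomes these shares were 26.3% and 5.11%. For Saos-2 it was at 33 of 98 (33.7%) and 27 of 432 (6.25%), beside 27.8% and 5.74% on the other autosomes. IMR90 H3K18ac did not follow this order. It was at 2 of 96 IMR90 BrdU regions found in both other lines (2.08%) and at 15 of 450 found in IMR90 alone (3.33%). The other autosomes had 1.97% and 3.23%, so the order was alike in both places. In all, IMR90 H3K18ac was at 19 of 636 IMR90 BrdU regions, or 2.99% (1.81 to 4.63), beside 2.44% over the whole list and 2.93% on the other autosomes, a ratio of 1.02 (0.629 to 1.655). Of the 103 loci in all 3 cell lines, 37 overlapped H1 H3K18ac and 2 overlapped IMR90 H3K18ac. These shares were 35.9% (26.7 to 45.97) and 1.94% (0.236 to 6.84). Both intervals included the shares of the 484 such loci on the other autosomes, 30.6% and 2.69%. On the 4 chromosomes the IMR90 mark covered 15.8 kb per Mb and the H1 mark 8.91 kb per Mb. H1 knockdown BrdU regions were at H1 H3K18ac in 1 of 138 cases, or 0.725% (0.0183 to 3.97), beside 1.82% over the whole list and 1.90% on the other autosomes. The mark was mapped in cells without siRNA.

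Between the 2 H3K18ac lists, sharing depended on which list was asked. Of 7363 H1 regions on the 4 chromosomes, 1517 overlapped an IMR90 region, or 20.6% (19.7 to 21.55), beside 19% over the whole list and 20.8% on the other autosomes, a ratio of 0.9885 (0.942 to 1.04). Of 6750 IMR90 regions, 1478 overlapped an H1 region, or 21.9% (20.9 to 22.9), beside 14.5% over the whole list and 13.01% on the other autosomes, a ratio of 1.68 (1.60 to 1.77). H1 H3K18ac covered 8.91 kb per Mb on these chromosomes and 4.83 kb per Mb on the other autosomes, and its part in the IMR90 share was not tested. In every length class the IMR90 share was higher on the 4 chromosomes, from 13.4% against 7.195% for single windows to 42.3% against 29.5% for regions of 2000 bp and over. Without chromosome 17 the ratio for H1 regions was 0.8645 (0.814 to 0.918), and without chromosome 22 it was 1.09 (1.03 to 1.15).

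In IMR90 the 3 highest-scoring H3K18ac regions on the 4 chromosomes were all on chromosome 17. The region chr17:46644201-46671000 ranked first in the whole IMR90 list. It was 26800 bp long, had no H1 H3K18ac region within it, and overlapped an H1 control BrdU region. The second, chr17:48262801-48277500, was 14700 bp long and overlapped an IMR90 BrdU region, again with no H1 H3K18ac. In H1 the longest region on the 4 chromosomes was 3200 bp, chr17:27070401-27073600, which ranked 10 and was shared with IMR90. The top H1 region, chr17:41399801-41401200, ranked 6, was 1400 bp long and had no IMR90 overlap.

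Division of the 4 chromosomes into bins of 1 Mb whose 500 kb parts were both open gave 196 bins. The median bin held 0 H1 knockdown, 2 H1 control, 2 IMR90 and 2 Saos-2 BrdU regions, and the highest bins held 4, 11, 22 and 15. H1 H3K18ac had a median of 30 and a highest count of 142, and IMR90 H3K18ac a median of 28.5 and a highest count of 117. The variance over the mean is expected to be 1 for independent counts with the same mean in every bin. It was 1.18 for the knockdown list, 2.52 for H1 control, 4.28 for IMR90 and 3.52 for Saos-2 BrdU. For H3K18ac it was 22.6 in H1 and 19.02 in IMR90. All 3 BrdU lists had a region in 116 bins, or 59.2%. The densest 19 bins held 31.9% of the binned H1 control regions, 35.97% of those of IMR90 BrdU and 32.7% of those of Saos-2, with 6, 7 and 8 of these bins on chromosome 22.

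By mean rank over the H1 control, IMR90 and Saos-2 BrdU lists, 4 of the 5 densest bins were on chromosome 22. The first, chr22:37000001-38000000, held 1 H1 knockdown, 10 H1 control, 18 IMR90 and 12 Saos-2 BrdU regions, with 116 H1 and 51 IMR90 H3K18ac regions. Adjoining bins filled chr22:43000001-46000000, which held 5 H1 knockdown, 28 H1 control, 46 IMR90 and 36 Saos-2 BrdU regions. These formed 71 loci, 12 of them in all 3 cell lines, in a stretch with 341 H1 and 155 IMR90 H3K18ac regions. The other bin was chr17:72000001-73000000, with 10 H1 control, 8 IMR90 and 13 Saos-2 BrdU regions and none in the H1 knockdown list. It held 61 H1 H3K18ac regions but only 8 in IMR90. When bins were ranked by bases covered instead of number, 2 of these 5 bins were still among the densest 5.

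At the other extreme, 14 bins had no region in the 3 BrdU lists, 6 on chromosome 16, 6 on chromosome 17, 2 on chromosome 20 and 0 on chromosome 22. These 14 bins held 2 H1 knockdown regions. H1 H3K18ac had a median of 5.5 regions in them, against 39 in the 116 bins with all 3 BrdU lists, and IMR90 H3K18ac a median of 9.5 against 34. Bins such as chr16:61000001-62000000, with 2 H1 H3K18ac regions, and chr20:53000001-54000000, with 2 in H1 and 1 in IMR90, held few regions of any list. The bins chr17:50000001-51000000 and chr17:52000001-53000000 had 4 and 6 H1 H3K18ac regions and 0 in IMR90, and chr20:12000001-13000000 had 5 in H1 and 9 in IMR90. Lowest among them in H1 H3K18ac was chr17:68000001-69000000, with 0 regions, where IMR90 had 10. An absent BrdU region in such a bin may lie under the authors' threshold, since depth is unknown.

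1 of the 14 BrdU-free bins was rich in the mark. The bin chr17:59000001-60000000 held 86 IMR90 H3K18ac regions covering 61.4 kb, including chr17:59477601-59486800 of 9200 bp, the third highest IMR90 score on the 4 chromosomes. H1 had 7 H3K18ac regions there, covering 1.1 kb. It was the bin where the H1 and IMR90 H3K18ac lists departed most from each other. The reverse was seen in chr16:49000001-50000000, with 57 H1 H3K18ac regions and 2 in IMR90. That bin held 1 H1 knockdown, 8 H1 control, 3 IMR90 and 8 Saos-2 BrdU regions. The densest H3K18ac bins by mean rank were chr16:11000001-12000000, with 87 H1 and 107 IMR90 regions, chr22:38000001-39000000, with 134 and 74, and chr17:75000001-76000000, with 87 and 92. The second of these held 0 H1 knockdown, 2 H1 control, 8 IMR90 and 2 Saos-2 BrdU regions.

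Among the BrdU lists the bin that departed most from the others was chr16:33000001-34000000. It held 15 Saos-2 regions and 0 in the H1 knockdown, H1 control and IMR90 lists. These 15 regions covered 4.2 kb, 7 of them single windows, and lay between 33350301 and 33958500. H1 H3K18ac had 10 regions in the bin and IMR90 had 0. The bin before it, chr16:32000001-33000000, held 2 Saos-2 BrdU regions and none in the other BrdU lists. A count of 15 Saos-2 regions, the highest of any bin, was also found in chr22:27000001-28000000, named after its values were seen, which held 3 H1 knockdown, 9 H1 control and 2 IMR90 BrdU regions. For the H1 control list the largest departure was chr22:30000001-31000000, with 1 H1 knockdown, 0 H1 control, 6 IMR90 and 3 Saos-2 BrdU regions. For IMR90 it was chr16:6000001-7000000, with 1 H1 knockdown, 5 H1 control, 0 IMR90 and 4 Saos-2 BrdU regions, where H1 had 8 H3K18ac regions and IMR90 had 0. For the H1 knockdown list it was chr16:75000001-76000000, with 2 H1 knockdown, 1 H1 control, 0 IMR90 and 0 Saos-2 BrdU regions.

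**Figure D5:**
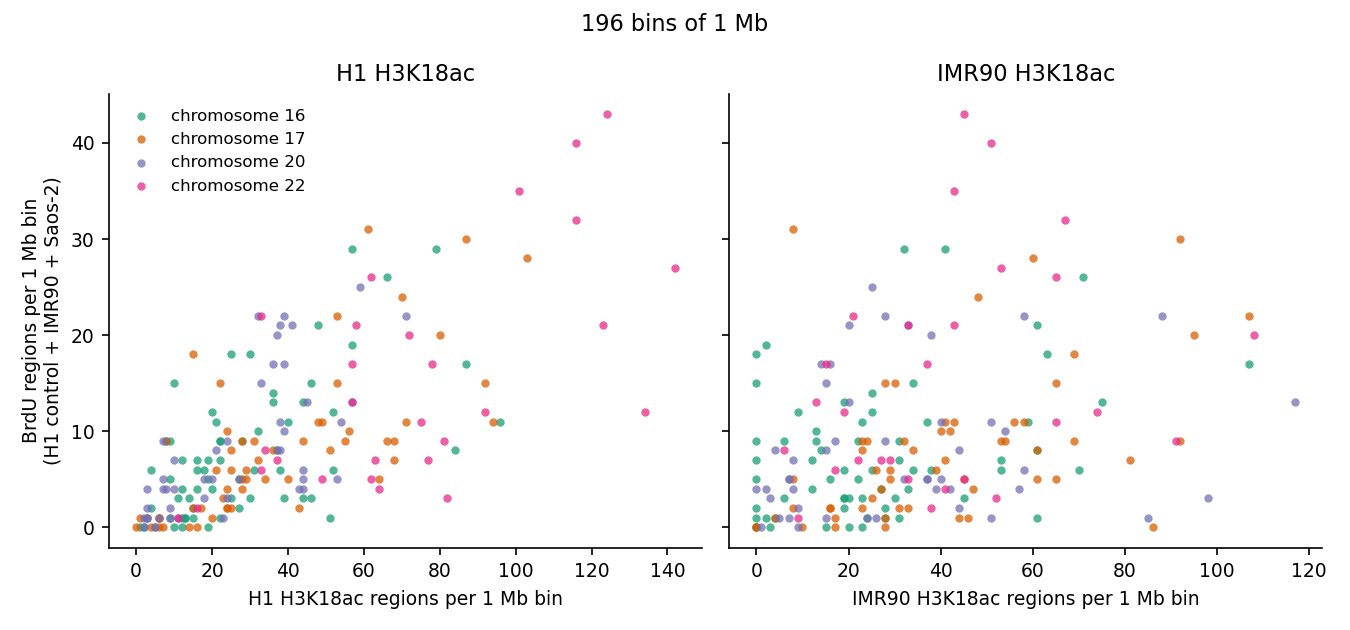
BrdU regions of the H1 control, IMR90 and Saos-2 lists together (vertical axis) against H3K18ac regions of H1 (left) and IMR90 (right) in each of 196 bins of 1 Mb; each point is 1 bin, coloured by chromosome. The 4 highest points are on chromosome 22, and the bin with 86 IMR90 H3K18ac regions lies on the zero line.

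Across the 196 bins, whose sequence all lists share, the Spearman correlation of counts with H1 H3K18ac was 0.745 for IMR90 BrdU, 0.648 for H1 control BrdU, 0.427 for Saos-2 BrdU and 0.403 for H1 knockdown BrdU. With IMR90 H3K18ac it was 0.471 for IMR90 BrdU, 0.316 for H1 control BrdU, 0.292 for H1 knockdown BrdU and 0.168 for Saos-2 BrdU. For IMR90 BrdU the correlation was therefore larger with the mark of H1 than with the mark of its own cell line. The BrdU lists correlated with each other at 0.708 for H1 control with IMR90, 0.629 for H1 control with Saos-2 and 0.538 for IMR90 with Saos-2, and the 2 H3K18ac lists at 0.578. Neighbouring bins are not independent, and these values describe the bins of single libraries.

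At a finer scale, most BrdU regions did not touch H1 H3K18ac, and no distance for randomly placed regions was computed to set theirs against. The median distance to the nearest H1 H3K18ac region was 8.65 kb for H1 knockdown BrdU, 4.9 kb for H1 control BrdU and 5.7 kb for Saos-2 BrdU on the 4 chromosomes, against 10.8, 7.4 and 6.7 kb on the other autosomes, where the mark was sparser. For H1 control BrdU, 349 of 512 regions or 68.2% lay within 10 kb of the mark, against 57.4% on the other autosomes. For IMR90 BrdU the median distance to the IMR90 mark was 25.75 kb, against 23.5 kb on the other autosomes. Regions of that mark lay closer together, with a nearest neighbour at a median of 0.5 kb on the 4 chromosomes, against 2.2 kb for H1 H3K18ac. The part of this spacing in the longer distance was not tested. Within their own list, BrdU regions on the 4 chromosomes had a nearest neighbour at a median of 428.3 kb in the H1 knockdown list, 53.95 kb in H1 control, 36.7 kb in IMR90 and 41.1 kb in Saos-2, against 320.4, 91.95, 60 and 65.5 kb on the other autosomes. By this median the knockdown list was the exception, with wider spacing on chromosomes 16, 17, 20 and 22 than elsewhere. At short range its order was the other way: 7.25% of its 138 regions there had a neighbour within 10 kb, against 5.48% on the other autosomes.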

How the data were processed

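Each of the 6 pull-downs has 1 deposited region list. Bowtie 0.12.7 and hg19 are named, per the submitters' processing notes. The caller of the regions, its threshold, the treatment of duplicates and any use of inputs were not given in the sources used here. The score in the last column of each deposited list was given by the authors, without a stated meaning, and was used only to rank regions within a list. Regions lie on a grid of 100 bp windows, at least 300 bp apart in a list.

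Lists were compared in Python 3.11.15 (numpy 2.4.6, pandas 2.3.3, scipy 1.17.1, matplotlib 3.10.9). A region belonged to the interval that held its midpoint, and 1 bp of overlap counted as shared. The other autosomes were trimmed by 5 Mb at each end, acrocentric chromosomes at the far end only. Intervals are exact Poisson for densities, conditional binomial for density ratios, Clopper-Pearson for shares, and on the log scale for share ratios and ratios of ratios. The code was tested on simulated lists.

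Named regions were the 3 of highest score per list, the 3 top loci in 3 cell lines, the 3 top knockdown regions with a control overlap, and the top region of each list without an overlap. Named bins were the 5 at either end by BrdU rank, the 3 at either end by H3K18ac rank and the largest departure per list; of these the text gives those that bear on a comparison. Stretches of several bins were chosen after their values were seen. The chromosomes, lists and comparisons were chosen with earlier results of these data known. A planned count at gene lists was not run, since no hg19 annotation was used here.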

Additional observations from a re-analysis of the deposited data

How the results depend on the processing

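Direction held in most alternatives: of 60 density ratios 33 lay within the interval of the reported value, 25 moved outside it in the same direction or without a call, and 2 turned round by their point value. The 2 were IMR90 H3K18ac with the full length as denominator (0.979) and without chromosome 17 (0.971), both with intervals that included 1. Lists limited to the upper 50% by score gave density ratios of 1.64 for H1 knockdown, 2.275 for H1 control, 2.62 for IMR90 and 2.36 for Saos-2 BrdU, 1.89 for H1 and 1.10 for IMR90 H3K18ac. Covered bases gave 1.94 for H1 control and 2.30 for IMR90 BrdU, and left 2 of the 5 densest bins in place. H1 H3K18ac was at 1.685 with full length. Whole autosomes gave 1.89 for H1 and 1.105 for IMR90 H3K18ac, and merging within 10 kb 1.45 and 1.10. Without chromosome 19 among the other autosomes, Saos-2 BrdU was at 2.39 and H1 H3K18ac at 1.89.

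Leaving out chromosome 16 gave 2.28 for IMR90 BrdU, 2.02 for H1 H3K18ac and 1.17 for IMR90 H3K18ac. Leaving out chromosome 20 gave 1.99 and 1.085 for H3K18ac in H1 and IMR90. Without chromosome 22 the ratios were 0.978 for H1 knockdown, 1.52 for H1 control, 1.77 for IMR90 and 1.92 for Saos-2 BrdU, 1.52 for H1 and 1.02 for IMR90 H3K18ac.

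Sharing depended on the score. In the upper 50% of the lists, the ratio for H1 control in Saos-2 BrdU fell to 0.894 and that for loci in 3 cell lines to 0.916, both with intervals that included 1. The share ratio was 1.08 for H1 control in IMR90 BrdU, 0.910 for IMR90 in H1 control BrdU, 0.876 for IMR90 in Saos-2 BrdU, and 1.28 for H1 knockdown in H1 control BrdU. It was 0.876 for H1 control BrdU in H1 H3K18ac, 1.72 for IMR90 BrdU in IMR90 H3K18ac, 0.941 for H1 in IMR90 H3K18ac and 1.57 for IMR90 in H1 H3K18ac. Weighting to the score groups, chosen after seeing the data, gave 1.13 for H1 control in IMR90 BrdU, 0.9385 for H1 control in Saos-2, 0.917 for IMR90 in H1 control and 0.898 for IMR90 in Saos-2. H1 H3K18ac in IMR90 H3K18ac moved to 1.09 when merged, 0.8645 without chromosome 17, 1.09 without chromosome 22 and, for regions of at most 300 bp (chosen after seeing the data), 1.06. IMR90 H3K18ac in H1 H3K18ac moved to 1.455 when merged, 1.59 without chromosome 17, 1.83 without chromosome 20 and 1.77 for regions of at most 300 bp. Without chromosome 22, H1 knockdown BrdU in H1 H3K18ac was 0, from 1 region.

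The knockdown ratio over that of the other autosomes ran from 0.635 to 0.758 in 7 alternatives, all chosen after seeing the data. It was 0.514 when only the control list was cut by score to equal number, also chosen after seeing the data. The cause of these moves was not tested. Intervals that included 1 as reported lay above 1 for Saos-2 in IMR90 BrdU with 50% overlap (1.23) and whole autosomes (1.15). They also did so for IMR90 in H1 control BrdU when merged (1.21). The same held for H1 control BrdU in H1 H3K18ac when merged, at 1.26 (1.06 to 1.498). In the upper 50% by score that last ratio was 0.876, with an interval of 0.625 to 1.227 that included 1. Depth is unknown, so an absent region may have lain under the authors' threshold. No paired analysis was possible because each group had 1 library.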
